A study of Mus musculus with 6 samples.

Results

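The genes described here are 37 genes that mark position along the gut in mouse colon: 26 Hox genes, the regional transcription factor genes Cdx1, Cdx2, Gata4 and Gata6, and 7 genes used as markers of the small intestine (Rbp2, Slc10a2, Enpep, Ada, Slc5a1, Alpi and Fabp6). They were taken by name out of 19949 genes and unnamed entries with counts, and the question put to them was where along the gut the pieces of tissue came from. RNA was sequenced from BALB/c mice aged 6 to 8 weeks, either STAT6-/- (with a disrupted gene for STAT6, a transcription factor activated by the cytokines interleukin-4 and interleukin-13) or wild type (WT), with 3 libraries per genotype. All mice of both genotypes drank 3% dextran sulfate sodium (DSS), which injures the colonic epithelium, for 3 days, and untreated colons are not analysed here. The labels name the tissue as colon, while their protocol speaks first of the proximal intestine, then of scraping its inner surface, and then of cutting up the colon. Nothing in the labels says whether the replicates are separate animals, so p-values measure the spread between these libraries, which may be technical.

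Hox genes encode homeodomain transcription factors and lie in 4 clusters, HoxA to HoxD, in which members are numbered as paralog groups 1 to 13. Genes at the 5′ end of a cluster, with the high numbers, are active towards the tail end of the body, and genes at the 3′ end further forward. In the gut, group 13 genes mark the hindgut, mostly in the muscle and connective tissue, with Hoxb13 also active in the epithelium of the distal colon. Cdx1 and Cdx2 encode caudal-type homeodomain factors that keep the epithelium intestinal. Gata4 is a factor of the proximal small intestine, and Gata6 is used along the whole intestine.

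Levels compared between libraries are CPM, the expected counts of a gene scaled to the library total with TMM factors. Levels compared between genes are FPKM, which also divide by transcript length. Values are listed in the order of replicates 1, 2 and 3. The libraries held 17122315 to 19555450 expected counts, so that 3 counts, the most that a gene with no counts is taken to hide, come to 0.153 to 0.175 CPM before TMM scaling. Stat6 itself stood at 49.9, 38.5 and 53.2 CPM in STAT6-/- and 91.7, 104 and 88.8 CPM in WT (edgeR adjusted p = 0.0134). The targeted gene was thus lower in every STAT6-/- library without being absent; which part of it was disrupted cannot be read from counts per transcript. Xist, which coats the inactive X of female cells, lay at 0.264 to 0.992 CPM in STAT6-/- and 352 to 545 CPM in WT, and the Y-linked Ddx3y at 50.9 to 59.5 CPM in STAT6-/- and at most 0.124 CPM in WT. All STAT6-/- libraries therefore had a male profile and all WT libraries a female one, and genotype and sex cannot be told apart in any comparison here. Libraries also differed in cell makeup: WT replicate 1 held Krt5, a keratin of stratified squamous epithelium, at 1403 CPM against at most 0.397 CPM elsewhere.

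All 6 libraries had a posterior Hox profile. Paralog groups 9 to 13 carried 84.7%, 95.1% and 92.4% of the summed FPKM of all 39 Hox genes in the STAT6-/- libraries and 92.8%, 95.7% and 91.2% in WT. Hoxb13 alone carried 48.1% to 63.6% of that sum. It was the most abundant of the 37 genes, at a mean of 245 FPKM over the 6 libraries, ahead of Cdx1 at 111 and Hoxd13 at 69.1. Within paralog groups 9 to 13, Hoxa10 and Hoxa13 followed at 20.5 and 16.3 FPKM. Genes of the middle of the clusters were far lower, with Hoxa5 at 5.85, Hoxb6 at 2.28 and Hoxb4 at 1.42 FPKM. The HoxC cluster was nearly silent: Hoxc4 averaged 0.08 FPKM, Hoxc6 had 3 counts and Hoxc5 1 count over all 6 libraries.

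**Figure D1:**
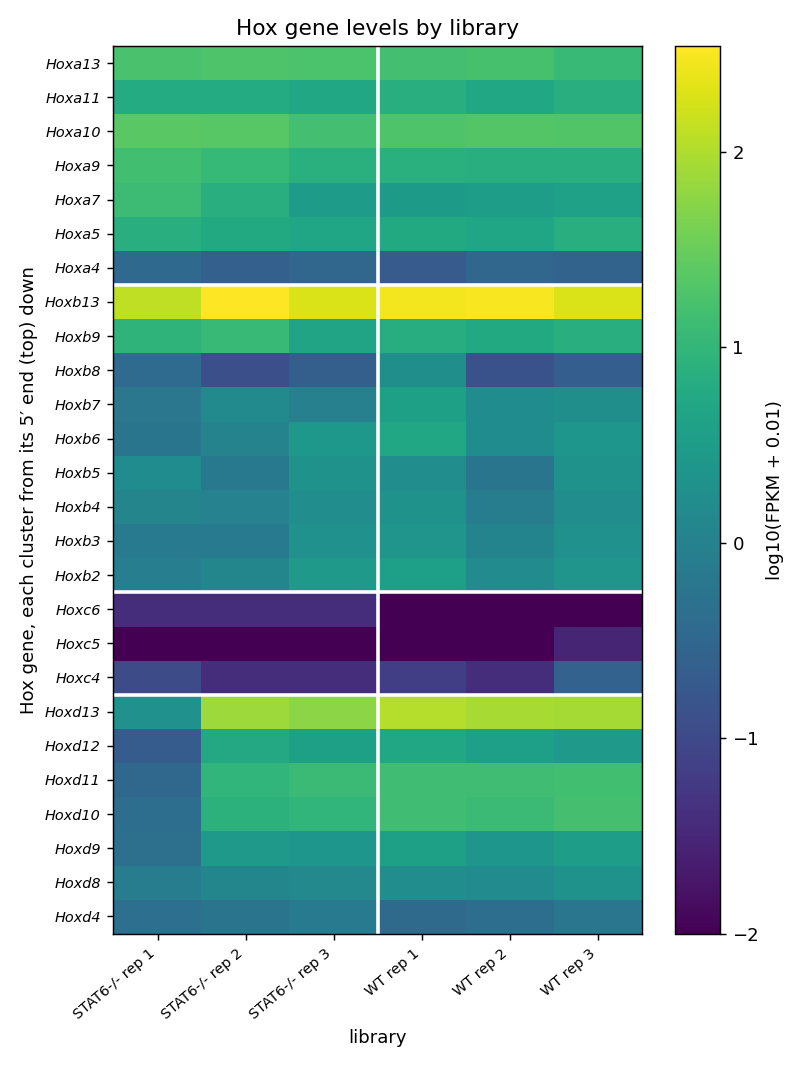
Levels of the 26 Hox genes as log10(FPKM + 0.01), with 1 column per library and each cluster ordered from its 5′ end. Hoxb13 is bright in every column, the 3 HoxC genes are dark throughout, and the 5′ HoxD genes are dark in STAT6-/- replicate 1 only.

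Between genotypes, none of the 22 Hox genes with enough counts to test passed edgeR's quasi-likelihood test at a Benjamini-Hochberg adjusted p below 0.05, the threshold used for every call. Unadjusted p under 0.05 was reached by 2 of them, Hoxa7 and Hoxb7, and DESeq2 likewise called 0, with 3 at an unadjusted p under 0.05. Of all 15066 genes tested, 22.9% were called, 11.4% higher and 11.5% lower in STAT6-/-. The median log2 fold change was -0.31 over the 22 Hox genes and 0.01 over all tested genes. Of the 26 Hox genes, Hoxa4, Hoxc4, Hoxc5 and Hoxc6 had too few counts for the test. In bulk tissue, fewer cells of a type and less RNA per cell cannot be told apart.

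The HoxD cluster differed most between libraries. Hoxd13, the 5′-most gene of the cluster (chr2:74668225-74671603, build GRCm38.p6, plus strand), stood at 4.48, 185 and 146 CPM in STAT6-/- and 278, 237 and 206 CPM in WT. STAT6-/- replicate 1 was 32.5-fold below the lowest of the other 5 libraries, while all 3 STAT6-/- values lay below the WT values. The log2 fold change was -1.11 ± 0.997 (SE; edgeR adjusted p = 0.434), -0.50 without that library and -2.28 by limma-voom (adjusted p = 0.262). Hoxd11 had 1.07, 35.4 and 44.7 CPM in the STAT6-/- libraries, while the WT libraries had 51.0, 54.6 and 52.1. Hoxd10 had 0.70, 15.4 and 18.3 CPM against 26.7, 24.5 and 29.1. For both genes STAT6-/- replicate 1 was the outlying library, 33.0-fold and 21.9-fold below the lowest other, and the groups did not overlap.

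The gap between STAT6-/- replicate 1 and the other libraries was smallest at the 3′ end of the cluster. Hoxd12 stood at 0.467, 14.1 and 9.89 CPM in STAT6-/- and 13.1, 9.93 and 6.69 in WT, so that only replicate 1 was low, by 14.3-fold. For Hoxd9 (0.887, 5.69 and 5.34 CPM against 8.28, 5.58 and 6.98) that gap was 6.03-fold. For Hoxd8 (1.31, 2.25 and 2.59 CPM against 3.08, 3.16 and 3.74) it was 1.72-fold. Hoxd4, the 3′-most HoxD member tested, showed no gap, with 1.03, 1.41 and 1.90 CPM against 0.946, 1.18 and 1.48. The low values in STAT6-/- replicate 1 rest on 96 counts of Hoxd13, 10 of Hoxd12, 23 of Hoxd11, 15 of Hoxd10 and 19 of Hoxd9. Hoxd10 and Hoxd11 overlap in the annotation. The counted Hoxd10 transcript had whole-number expected counts in every library, which show no split of its reads with another transcript.

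Genes flanking the cluster were examined after these values were seen. Evx2, the homeobox gene next to Hoxd13 on its 5′ side, had 0.28 CPM in STAT6-/- replicate 1 and 7.46 to 12.4 CPM in the other 5 libraries. Lnpk, the next gene outward, had 18.9 CPM there against 22.0 to 26.9. Mtx2, beyond the 3′ end, had 53.0 CPM there and 34.6 to 69.0 in the others. The low stretch in that library thus ran from Evx2 to Hoxd8. Mtx2 lay within the range of the others, and Lnpk only slightly below it.

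**Figure D2:**
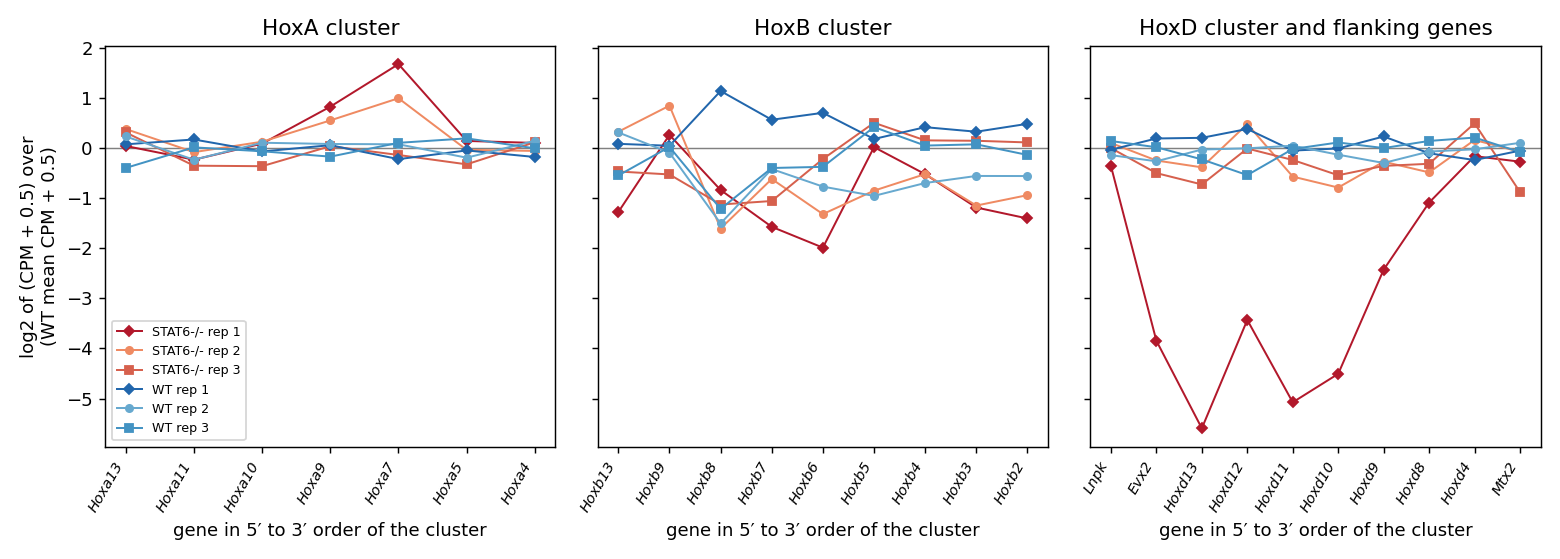
Each library's level relative to the WT mean, as log2 of (CPM + 0.5) over (WT mean CPM + 0.5), along the HoxA, HoxB and HoxD clusters in 5′ to 3′ order, with Lnpk, Evx2 and Mtx2 added at the HoxD ends. STAT6-/- replicate 1 dips from Evx2 to Hoxd8 and meets the other lines at Hoxd4, where it has 1.03 CPM. No library dips in this way along HoxA, while STAT6-/- replicate 1 is also the lowest for 5 of the 9 HoxB genes.

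The promoters of Hoxd13 and Hoxd10 are shown because these genes shared the deficit. The sequences are the 250 bases before the start, from RefSeq on GRCm38.p6, written 5′ to 3′ on the plus strand, at chr2:74667975-74668224 and chr2:74691641-74691890. Capitals mark CpG dinucleotides.
Hoxd13: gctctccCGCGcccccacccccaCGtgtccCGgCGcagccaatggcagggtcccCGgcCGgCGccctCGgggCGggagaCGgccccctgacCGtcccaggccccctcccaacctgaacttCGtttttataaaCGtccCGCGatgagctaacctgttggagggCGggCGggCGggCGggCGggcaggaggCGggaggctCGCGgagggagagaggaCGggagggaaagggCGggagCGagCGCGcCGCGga
Hoxd10: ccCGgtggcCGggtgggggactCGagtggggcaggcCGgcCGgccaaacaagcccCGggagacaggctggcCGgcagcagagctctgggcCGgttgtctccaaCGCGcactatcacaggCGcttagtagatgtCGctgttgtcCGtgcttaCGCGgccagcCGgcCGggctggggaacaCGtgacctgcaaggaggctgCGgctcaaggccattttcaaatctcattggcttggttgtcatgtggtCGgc
They hold 31 and 20 CpG dinucleotides at 74.4% and 65.6% GC. The 18 promoters found for 16 Hox members had a median of 12.5 CpG dinucleotides (range 2 to 35), and all 32841 promoters in the table a median of 6. None of the motifs searched (listed below with the small-intestine markers) occurs in these 2 windows.

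The HoxA cluster did not share the deficit. Hoxa13 stood at 20.2, 25.6 and 24.4 CPM in STAT6-/- and 20.6, 23.1 and 14.7 in WT. Hoxa10 stood at 49.6, 50.9 and 36.1 CPM against 44.4, 50.2 and 44.5, and Hoxa11 at 13, 14.5 and 11.9 against 17.3, 13 and 15.5. The groups overlapped for all 3. STAT6-/- replicate 1 was the lowest library for none of the 7 HoxA genes but for 6 of the 7 HoxD genes. It was also lowest for 5 of the 9 HoxB genes, by 1.03-fold (Hoxb3) to 2.01-fold (Hoxb6) below the lowest other library. The FPKM ratio of Hoxd13 to its paralog Hoxa13, both group 13 genes, was 0.117, 3.78 and 3.12 in STAT6-/- and 7.06, 5.37 and 7.33 in WT. Summed over groups 9 to 13, the FPKM ratio of HoxD to HoxA was 0.0544, 1.67 and 1.84 against 2.93, 2.41 and 2.66. The ratios of STAT6-/- replicates 2 and 3 also lay below all WT ratios.

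Hoxa7 and Hoxa9, neighbours in the middle of the cluster, had their highest values in STAT6-/- replicate 1. Hoxa7 stood at 23.4, 14.4 and 6.30 CPM in STAT6-/- and 5.91, 7.38 and 7.54 in WT. STAT6-/- replicates 1 and 2 were above every WT library, and replicate 3 lay within the WT range. The log2 fold change was 1.08 ± 0.45 (SE; edgeR adjusted p = 0.121). Hoxa9 stood at 42.8, 35.3 and 24.5 CPM against 24.9, 25.3 and 21.2, with the same pattern (log2 fold change 0.52 ± 0.22, edgeR adjusted p = 0.126). Without STAT6-/- replicate 3 both were called, at 1.49 (edgeR adjusted p = 0.0226) and 0.76 (0.026), and without STAT6-/- replicate 1 they were at 0.61 (edgeR adjusted p = 0.311) and 0.37 (0.267). Hoxa5 lay at 8.83 to 12.4 CPM in STAT6-/- and 9.74 to 12.9 in WT. Hoxa4 lay under 0.5 CPM in every library.

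In the HoxB cluster, the hindgut gene Hoxb13 (chr11:96194316-96196610, GRCm38.p6) stood at 149, 454 and 261 CPM in STAT6-/- and 384, 449 and 247 in WT. The groups overlapped widely and STAT6-/- replicate 1 was the lowest library (log2 fold change -0.32 ± 0.42, edgeR adjusted p = 0.592, and 0.03 without that library). Hoxb9, which comes next along the cluster, stood at 21.9, 33.0 and 12.4 CPM against 18.7, 17 and 18.4. The 3′ genes Hoxb2 to Hoxb8 were low in all libraries, at 0.313 to 7.87 CPM, and 6 of the 9 HoxB genes were highest in WT replicate 1. Hoxb8 had 4.97 CPM in WT replicate 1 and 0.313 to 0.887 in the other 5. Hoxb7 stood at 0.70, 1.83 and 1.22 CPM against 4.79, 2.17 and 2.21, without overlap (log2 fold change -1.29 ± 0.51, edgeR adjusted p = 0.103). WT replicate 1 is also the library with the squamous keratins: the 10 squamous markers summed to 3541 CPM there and to 8.08 to 37.9 CPM in the others, with Krt14 at 784, Krt13 at 723 and Krt4 at 63.8 CPM there. The part of that tissue in the HoxB values was not tested.

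By cluster, HoxD carried 1.98% of the summed Hox FPKM in STAT6-/- replicate 1 and 18.6% to 30.8% in the other 5 libraries. HoxA carried 38.5% there and 12.1% to 16.4% elsewhere, and HoxB 59.5% there and 52.9% to 67% elsewhere. Paralog groups 4 to 8 carried 12.6% there and 3.19% to 6.55% elsewhere. STAT6-/- replicate 1 thus stood apart in the mix of clusters, while the HoxD shares of the other 2 STAT6-/- libraries were 18.6% and 24.3%, beside 23.6% to 30.8% in WT.

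**Figure D3:**
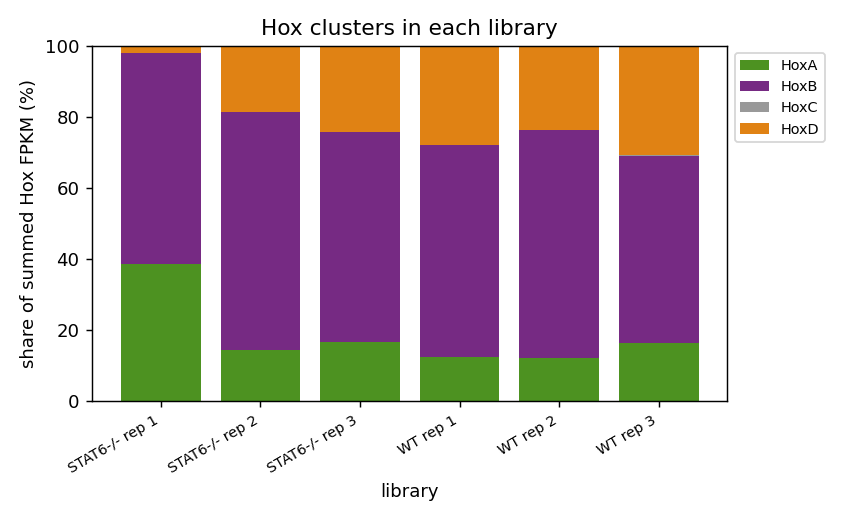
Share of the summed FPKM of 39 Hox genes carried by each cluster, as 1 stacked bar per library. HoxD shrinks to 1.98% in STAT6-/- replicate 1, where HoxA widens to 38.5%; HoxC, under 0.1% in every library, is too thin to see.

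Of the regional transcription factors, none was called. Cdx1 stood at 239, 349 and 160 CPM in STAT6-/- and 136, 173 and 102 in WT. STAT6-/- replicates 1 and 2 were above every WT library and replicate 3 was within the WT range (log2 fold change 0.87 ± 0.33, edgeR adjusted p = 0.0939). DESeq2 called Cdx1 (adjusted p = 0.0411), as did edgeR without STAT6-/- replicate 3 (adjusted p = 0.0342), while without STAT6-/- replicate 2 its log2 fold change was 0.58 (edgeR adjusted p = 0.148). Cdx2 (chr5:147300900-147307249, GRCm38.p6) stood at 167, 74.3 and 12 CPM against 25.4, 33.5 and 17.2. It spanned the WT range from above to below: replicate 1 was the highest library and replicate 3 the lowest of all 6. The log2 fold change was 1.73 ± 0.80 (edgeR adjusted p = 0.151). It was 2.30 without STAT6-/- replicate 3 (edgeR adjusted p = 0.0225) and 0.81 without replicate 1 (0.444). By tool, DESeq2 gave 1.75 (adjusted p = 0.0473) and limma-voom 1.12 (adjusted p = 0.406).

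Gata6 stood at 32.0, 44.9 and 44.1 CPM against 35.0, 35.5 and 33.4 and was not called (edgeR adjusted p = 0.355). STAT6-/- replicate 1 was the lowest library, while STAT6-/- replicates 2 and 3 were above every WT library. Gata4, the factor of the proximal small intestine, had 0.106 to 0.731 CPM in STAT6-/- and 0.227 to 0.473 in WT, too few counts to test. By FPKM, Cdx1 was above Cdx2 in every library, and the mean of Gata4 was 0.13 against 11.6 for Gata6.

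The 7 small-intestine markers moved in both directions, 3 up and 3 down. Over all 37 genes, 32 were tested and 6 called (18.8%, beside 22.9% of all genes), all of them small-intestine markers. Groups did not overlap for 3 members on the higher side and 8 on the lower side, beside 22% and 24.5% of all tested genes (46.5% in either direction).

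Among those that fell, Slc10a2 encodes the sodium-coupled transporter that takes bile acids back up in the ileum. It stood at 8.77, 48.6 and 34.4 CPM in STAT6-/- and 288, 224 and 203 in WT. Every STAT6-/- library was below every WT library, replicate 1 the lowest (log2 fold change -2.96 ± 0.58, edgeR adjusted p = 0.0184). Rbp2, a retinol-binding protein of absorptive cells, stood at 11.9, 29.3 and 23.0 CPM against 74.5, 68.1 and 62.8 (log2 fold change -1.68 ± 0.32, edgeR adjusted p = 0.0169). Enpep, a brush border aminopeptidase, stood at 6.21, 3.81 and 14.4 CPM against 46.9, 22.1 and 42.1 (log2 fold change -2.19 ± 0.53, edgeR adjusted p = 0.0296). Neither gene overlapped between groups.

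Among those that rose, Ada, the adenosine deaminase that is abundant in duodenal villi, stood at 20.7, 8.62 and 13.1 CPM against 5.74, 4.22 and 4.31, without overlap (log2 fold change 1.57 ± 0.36, edgeR adjusted p = 0.0262). Slc5a1, the sodium-glucose cotransporter SGLT1, stood at 196, 155 and 166 CPM against 99.2, 123 and 110, also without overlap (log2 fold change 0.64 ± 0.16, edgeR adjusted p = 0.0339). Alpi, the intestinal alkaline phosphatase, stood at 2.57, 0.627 and 3.39 CPM against 0.237, 0.620 and 0.397, so that the groups nearly touched (log2 fold change 2.38 ± 0.70). Its edgeR adjusted p of 0.05, just under the threshold before rounding, was lost in 13 of 19 alternatives. Alpi had 131 counts over the STAT6-/- libraries and 21 over the WT libraries. Fabp6, the ileal bile acid binding protein, was uneven at 1.54, 11 and 66.9 CPM against 4.91, 5.40 and 3.97. Replicate 1 was the lowest of all 6 libraries and replicate 3 the highest (log2 fold change 2.47 ± 1.13, edgeR adjusted p = 0.146). Without STAT6-/- replicate 3 the log2 fold change of Fabp6 was 0.44, and without STAT6-/- replicate 1 it was 3.06 (edgeR adjusted p = 0.0444).

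These 6 calls, like those of other genes, depended on which libraries were included. Without WT replicate 2 or without WT replicate 3 none of the members was called by edgeR, with 8 and 7 at an unadjusted p under 0.05. Of all genes, 21 were called higher and 10 lower without WT replicate 2, and 12 and 6 without WT replicate 3. With all 6 libraries these counts were 1718 and 1731. Stat6 was not called in either setting (edgeR adjusted p = 0.0725 and 0.0721). The edgeR adjusted p of Slc10a2 was then 0.0764 and 0.0767 and that of Rbp2 0.0773 and 0.0767, with the log2 fold changes of Slc10a2 at -3.01 and -3.07.

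**Figure D4:**
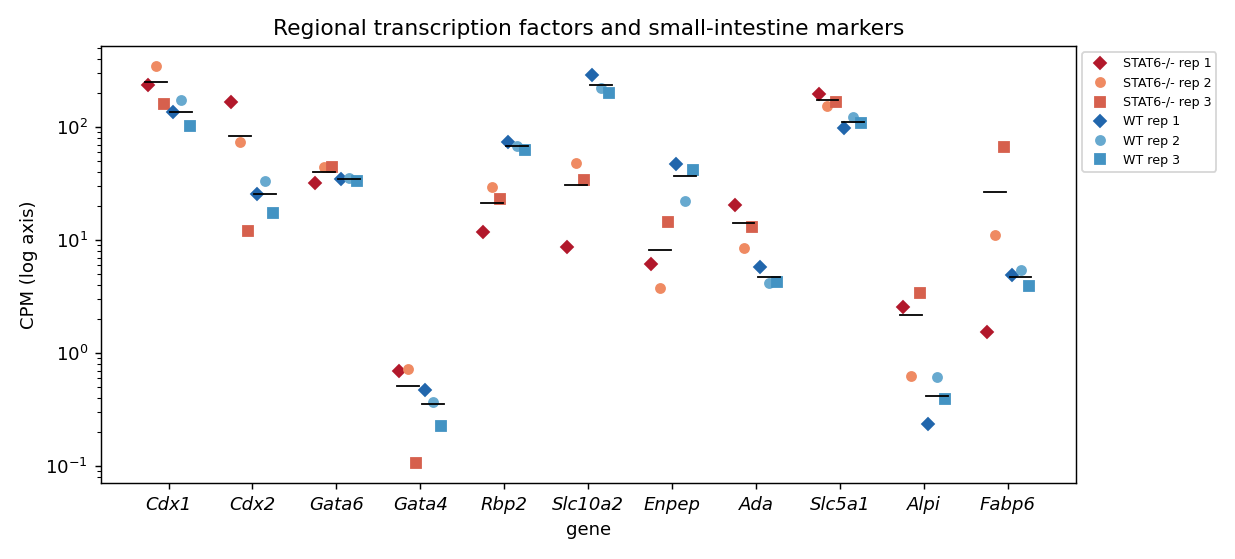
CPM of the 4 regional transcription factors and 7 small-intestine markers on a log axis, with 1 point per library and a line at each group's mean. Rbp2, Slc10a2 and Enpep are lower in all STAT6-/- libraries, Ada and Slc5a1 higher, and the STAT6-/- points of Cdx2 and Fabp6 spread from 12 to 167 CPM and from 1.54 to 66.9 CPM.

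The promoters of Slc10a2 and Rbp2, the 2 members called in the most alternatives, are printed 5′ to 3′ (RefSeq, GRCm38.p6, 250 bases before the start, chr8:5105288-5105537 on the minus strand and chr9:98490287-98490536 on the plus strand). Capitals mark motif matches on either strand.
Slc10a2: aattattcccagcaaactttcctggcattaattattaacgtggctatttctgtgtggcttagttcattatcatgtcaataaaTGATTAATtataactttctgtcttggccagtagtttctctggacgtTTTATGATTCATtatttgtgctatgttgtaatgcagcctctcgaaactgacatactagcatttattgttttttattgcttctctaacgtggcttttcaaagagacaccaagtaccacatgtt
Rbp2: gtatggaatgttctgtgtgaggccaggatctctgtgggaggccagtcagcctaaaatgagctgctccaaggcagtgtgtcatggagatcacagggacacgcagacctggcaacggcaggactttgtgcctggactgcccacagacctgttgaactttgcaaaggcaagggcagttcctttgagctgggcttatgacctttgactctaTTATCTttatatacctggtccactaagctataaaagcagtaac
Of the 37 genes, 24 had an entry in the RefSeq promoter table. The motifs searched on both strands were TTTATG for CDX factors, in 10.8% of all promoters, AGATAA for GATA factors, in 9.99%, CAAAGTCCA for HNF4, in 0.38%, and TGATTNAT for HOX with PBX, in 2.83%. Slc10a2 holds HOX-PBX matches at -168 to -161 and -118 to -111, and a CDX match at -122 to -117 that overlaps the latter. Rbp2 holds a GATA match at -43 to -38. Among the other members, Alpi had an HNF4 match, Hoxd11 a HOX-PBX match, and Fabp6, Hoxa7, Hoxb8, Hoxd4 and Hoxd11 had CDX matches. The promoter of Slc10a2 holds 4 CpG dinucleotides at 34.4% GC and that of Rbp2 holds 2.

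Other genes of absorptive cells also moved in both directions, but more fell than rose. Of 29 further small-intestine enterocyte genes, 19 were tested, 2 rose and 7 fell, beside 11.4% and 11.5% of all tested genes, with a median log2 fold change of -0.65. Mgam, a brush border glucosidase, rose from 149, 134 and 114 CPM in WT to 265, 317 and 257 in STAT6-/- (edgeR adjusted p = 0.0134). Slc51b, a subunit of the basolateral bile acid exporter, rose from 8.52, 7.26 and 7.66 to 47.8, 12.2 and 24.8 CPM (edgeR adjusted p = 0.0329). Dpp4, a brush border peptidase that releases dipeptides, was 2.21-fold lower and the iron exporter Slc40a1 3.50-fold lower. Others that fell were Mep1a, Slc15a1, Slc2a5 and Amn. Levels over the list were mixed: 10 of the 29 genes were above 10 CPM in every library, 9 were below 1 CPM in every library and 10 lay between. Among the low ones, lactase (Lct) reached at most 0.532 CPM, sucrase-isomaltase (Sis) 0.227 and the fatty acid binding protein Fabp1 0.059, and Fgf15, the bile-acid-induced hormone of the ileum, had 1 count in all.

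Of 10 colon absorptive genes, 9 were tested, 1 rose and 1 fell, a share near the 22.9% of all tested genes. Their median log2 fold change was -0.71. Without overlap between groups, 5 were lower and 1 higher in STAT6-/-, beside 24.5% and 22% of all tested genes. Aqp4, a water channel, stood at 945, 607 and 155 CPM in STAT6-/- and 43.4, 44.8 and 30.5 in WT (log2 fold change 3.85 ± 0.64, edgeR adjusted p = 0.014). Car1, a carbonic anhydrase of colonic surface cells, stood at 108 to 224 CPM against 1500 to 1922 (log2 fold change -3.40 ± 0.33, edgeR adjusted p = 0.00732). Scnn1g, a subunit of the epithelial sodium channel of the distal colon, stood at 0.233, 1.51 and 5.71 CPM against 18.2, 11.2 and 17.4, without overlap but not called (edgeR adjusted p = 0.0726). Replicate 1 was thus the STAT6-/- library with the least Scnn1g and the most Aqp4, as it was the one with the least HoxD. Its Scnn1g value is near the 0.14 CPM that 3 counts come to in that library. Scnn1g was picked after its values were seen, and a link of either gene to HoxD was not tested.

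The proteins of the Pbx, Meis and Pknox families bind DNA together with Hox proteins. Of their 9 genes, 8 were tested, 3 fell and none rose, beside 11.5% lower and 11.4% higher among all tested genes, with a median log2 fold change of -0.69. Pbx3 stood at 9.85, 9.82 and 11.2 CPM in STAT6-/- and 20.9, 25.1 and 28.1 in WT (log2 fold change -1.27 ± 0.19, edgeR adjusted p = 0.0116). Meis1 stood at 4.53, 5.12 and 9.20 CPM against 26.3, 18.4 and 20.8 (log2 fold change -1.80 ± 0.32, edgeR adjusted p = 0.0156). For both genes the groups were well apart.

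Of 17 chromatin regulators of Hox genes, all tested, the Polycomb gene Phc2 rose (1.63-fold) and the Polycomb genes Rnf2 (1.67-fold) and Cbx7 (2.22-fold) fell, 3 of 17 beside 22.9% of all tested genes. Of 9 non-coding RNAs of the clusters, 6 were tested and 1 fell, beside 11.5% of all tested genes. The 1 that fell was Hoxb5os (log2 fold change -1.68 ± 0.39, edgeR adjusted p = 0.0264). The most abundant, Hoxa11os, which overlaps Hoxa11, stood at 55.5, 110 and 41.1 CPM against 142, 98.3 and 119. Of the 13 other Hox genes, 3 were tested, none was called and 4 had no counts. Among 19 gut epithelial transcription factors, 16 were tested, 2 rose, among them Elf3, and 1, Hnf4g, fell. Of all tested genes, 11.4% were called higher and 11.5% lower. Isx, a homeobox gene of intestinal epithelium, had 23.0 CPM in STAT6-/- replicate 1 and 0.317 to 1.43 in the other 5 libraries. Of 11 mesenchymal transcription factors, 8 were tested and none was called by edgeR, with 1 at an unadjusted p under 0.05.

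Of the markers of other cell types, those of smooth muscle were called most often, beside 22.9% of all tested genes. Of 10 smooth muscle markers 9 fell, and their CPM summed to 2610, 4004 and 5913 in STAT6-/- and 11940, 10250 and 12480 in WT. Of 10 fibroblast markers 1 fell, with sums of 1060 to 4028 and 2469 to 6684 CPM. Of 10 epithelial markers 2 rose, with sums of 17920 to 29620 and 16930 to 22130 CPM. The 6 leukocyte markers summed to 443, 69.3 and 324 CPM in STAT6-/- and 65.7 to 89.1 in WT, and 1 rose. Of 8 endothelial markers 2 rose, with sums of 109 to 266 and 85.5 to 148 CPM, and of 10 neuronal and glial markers 2 rose and 1 fell, with sums of 22.1 to 82.9 and 29.3 to 32.4 CPM. Of 6 adipocyte markers 4 were tested and 3 fell, with sums of 9.61 to 26.8 and 42.8 to 251 CPM. Their part in the Hox and marker values was not tested.

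Smooth muscle markers were lowest in STAT6-/- replicate 1, the library with the least HoxD. Per 100 FPKM of the smooth muscle markers, HoxD groups 9 to 13 came to 0.25, 5.29 and 3.27 FPKM in STAT6-/- and 2.62, 2.74 and 2.11 in WT. On that scale replicate 1 was still the lowest library, and replicates 2 and 3 lay above all WT libraries. HoxA groups 9 to 13 came to 4.59, 3.16 and 1.78 FPKM per 100 against 0.895, 1.14 and 0.792, with replicate 1 the highest. The direction of the HoxD difference outside replicate 1 thus depended on whether levels were set against all RNA or against muscle RNA.

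**Figure D5:**
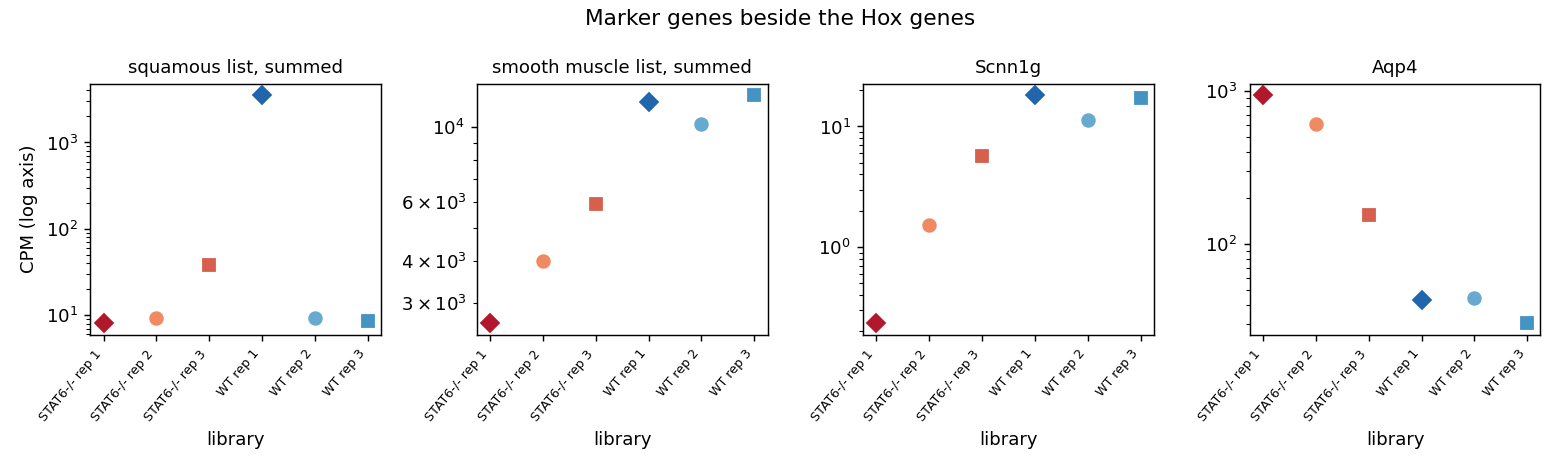
CPM per library on log axes for the summed squamous list, the summed smooth muscle list, Scnn1g and Aqp4. The squamous sum is 3541 CPM in WT replicate 1 and at most 37.9 CPM elsewhere; STAT6-/- replicate 1 has the least smooth muscle and Scnn1g and the most Aqp4.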

How the data were processed

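RNA of 6 mouse colon libraries was measured. The authors deposited 1 table per library with expected counts (estimated reads per RefSeq transcript, not normalized) and FPKM (scaled by transcript length and library size), per the file headers. The submitters' processing notes name RSEM 1.2.12, Bowtie2 2.2.5 and the build mm10, whereas how strand was handled is not given in the sources used here. Transcripts under an FPKM of 0.01 are not listed and were taken as 0.

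Counts were summed per gene with RefSeq names of GRCm38.p6 (27986 of 28238 transcripts) or GENCODE M21 (149), and rounded. The 103 unnamed transcripts (0.167% of counts) stayed separate entries. Genotypes were compared with edgeR 4.0.16 in R 4.3.3 (TMM, filterByExpr, robust quasi-likelihood F test, Benjamini-Hochberg adjustment over 15066 genes). Standard errors of log2 fold changes were derived as the absolute change divided by the root of F. Alternatives used other scalings and filters, DESeq2 1.42.0, limma 3.58.1, FPKM, a replicate block, removal of GC and length trends, and each library left out. Figures used matplotlib 3.10.9.

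The members and all gene lists were chosen with earlier results of these data known. Every member is accounted for. Of the other lists, genes with the smallest p, the most abundant, and others where 5 or fewer passed were named. Isx, Slc51b, Evx2, Lnpk, Mtx2, Scnn1g, the keratins and the low small-intestine genes were named after their values were seen. A few genes of these lists are not reported here.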

Additional observations from a re-analysis of the deposited data

How the results depend on the processing

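Over 638 alternative values of the 32 tested members, 575 were counted as unchanged in direction and side of the threshold. Of the rest, 35 lost a call, 8 gained one and 20 changed sign, none of these with a call on either side. Signs were compared after rounding to 2 decimals, and a value of 0 counted as unchanged. Hoxb5, at 0 with all libraries, therefore never counted as changing sign. Its log2 fold change was 0.35 without STAT6-/- replicate 2 and -0.38 without STAT6-/- replicate 3. Rbp2 and Slc10a2 kept their call in 17 of 20 alternatives, Enpep and Ada in 15, Slc5a1 in 14 and Alpi in 6 of 19. The log2 fold change of Hoxa10 was 0.04 with library size scaling and 0.01 with no filter and with log2 FPKM plus 1 or plus 0.1. With GC and length trends removed, that of Hoxd4 was -0.02 and that of Gata6 -0.14, and 1077 and 1142 genes were called higher and lower. DESeq2 called 2686 genes and 5 members higher. With 1 library left out at a time, log2 fold changes ran from -0.79 to 0.03 for Hoxb13, -0.92 to 0.31 for Hoxd12, -0.04 to 0.65 for Hoxb9, -0.15 to 0.11 for Hoxa5, -0.08 to 0.16 for Hoxa10, -0.57 to 0.01 for Hoxb4, -2.16 to 0.37 for Hoxb8 and -1.06 to -0.85 for Stat6, whose call was lost without WT replicate 2 or 3. Genes called ran from 12 to 2750 higher and 6 to 2440 lower, members from 0 to 6 higher and 0 to 3 lower, and Hox members from 0 to 2 higher. Without replicate 1 of both groups, a setting chosen after seeing the data, log2 fold changes were 0.05 for Hoxb2, 0.18 for Hoxb4, 0.04 for Hoxb8, 0.09 for Hoxb13, 0.57 for Hoxd12 and -1.03 for Stat6 (not called). There 11 and 4 genes and 0 and 0 members were called higher and lower by edgeR, with 3 and 4 members at an unadjusted p under 0.05. Without WT replicate 2, 21 and 10 genes were called, and without WT replicate 3, 12 and 6. The cause of these changes was not tested. Same-numbered libraries of the groups deviated together with correlations of 0.023, 0.044 and 0.134, not every library correlated best with its own number, and the numbers were not taken to pair the samples. A replicate block gave 1219 and 1445 genes and 2 and 3 members, ended the calls of Slc5a1 (edgeR adjusted p = 0.0739) and Alpi (0.112) and called Cdx1 (0.0354). The shares of paralog groups moved by less than 1 SD with expected counts in place of FPKM and with each library left out. With 17122315 counts in the smallest library, differences in Hoxa4, Gata4 and the HoxC genes were not detectable at this depth.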
